A study of Saccharomyces cerevisiae with 4 samples.

Results

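The genes described here are the 35 yeast genes listed as aminoacyl-tRNA synthetases, of 6301 open reading frames (ORFs) in the deposited table. The members are set by ORF name, and no measured value enters that rule. The set was, however, settled on with earlier results of these data known. The list holds 13 genes for enzymes of the mitochondrion and 22 for enzymes of the cytosol. Of the 22, 5 were classed here as supplying both compartments from a single gene. Those 5 are ALA1 (YOR335C), GRS1 (YBR121C), VAS1 (YGR094W), HTS1 (YPR033C) and CRS1 (YNL247W). Import of other cytosolic enzymes into mitochondria was not considered in this classing. *Saccharomyces cerevisiae* S288c cells that had spent 12 h in minimal medium (MM) lacking amino acids and adenine, with 0.025% ammonium sulfate, were compared with cells of the same strain in synthetic complete medium (SC) at mid log phase. RNA of both media was reverse transcribed with a mixture of oligo-dT and a multi-targeted primer (MTP), labeled with opposite dyes and hybridized together to each of 4 arrays of PCR-amplified ORFs. Every value is therefore a log2 ratio of nitrogen-poor (MM) over nitrogen-rich (SC) medium. The media differed in nitrogen supply, amino acids, adenine and time in culture, and these differences cannot be told apart.

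An aminoacyl-tRNA synthetase joins an amino acid to the tRNAs that carry its anticodons, and the charged tRNA then brings that amino acid to the ribosome. The enzymes fall into a pair of unrelated structural classes, I and II, each of which covers some of the amino acids. Yeast mitochondria translate a small set of proteins of the respiratory chain on ribosomes of their own. They use synthetases encoded in the nucleus and imported, some from genes of their own and some from genes shared with the cytosol. In the cytosol, tRNA left uncharged when amino acids run short is sensed by the kinase Gcn2, which has a domain related to histidyl-tRNA synthetase.

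All 35 genes had values on at least 3 arrays and were tested, 33 of them with values on all 4. The mitochondrial genes had mean ratios close to 0, whereas most of the cytosolic genes were lower in nitrogen-poor medium. Of the 13 mitochondrial genes, 3 were lower and 1 was higher at an adjusted p of 0.05 from limma, and of the 22 cytosolic or dual genes 19 were lower and 2 higher. Among all 5956 ORFs tested, 65.3% passed this threshold, 31.5% as lower and 33.8% as higher. The cytosolic count of decreases exceeded this background, and the mitochondrial count of increases was below it. The mitochondrial count of decreases, 3 of 13, was close to the background. A decrease of at least 2-fold was called for none of the 13 mitochondrial and for 9 of the 22 cytosolic or dual genes, against 4.77% of all ORFs. At the study's kind of threshold, a one-sided P of 0.05 in the observed direction, the same numbers of genes passed in both lists, against 36% of all ORFs as lower and 39.2% as higher. Values below 0 on all 4 arrays were found for 4 of the 13 mitochondrial and 18 of the 22 cytosolic or dual genes, against 30.2% of all ORFs, and values above 0 for 0 and 2 genes, against 32.8%. Among cytosolic or dual genes 15 were called lower with a change of at least 1.5-fold, against 11.7% of all ORFs, and no synthetase gene was called higher by that much, against 12.9%. The lowest 5% of mean ratios (297 ORFs) held 0 mitochondrial and 10 cytosolic or dual genes.

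The separation of the lists was of like size on every array. The median log2 ratio over the mitochondrial genes was -0.15 and -0.22 on replicates 1 and 2 of the arrays titled with MM in Cy5, and -0.02 and -0.05 on replicates 1 and 2 of those titled with SC in Cy5. The median over the cytosolic or dual genes was -0.87, -0.93, -0.84 and -0.89 on the same arrays in the same order, which is the order used throughout. The channel descriptions give each array the opposite dyes, so that "with MM in Cy5" and "with SC in Cy5" name arrays by their titles only; both sources split the arrays into the same pairs. The medians of all ORFs tested were -0.03, -0.03, 0.06 and 0.11. The mitochondrial median thus lay above the cytosolic one by 0.72, 0.71, 0.82 and 0.84, or 0.77 ± 0.07 (SD, n = 4 arrays). Relative to the median of all ORFs on the same array, the mitochondrial median was -0.13 ± 0.05 and the cytosolic one -0.91 ± 0.07 (SD, n = 4 arrays each). With 4 arrays an exact two-sided sign test cannot go below p = 0.125, and no p over the genes of a list is given, since genes are not replicates.

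**Figure D1:**
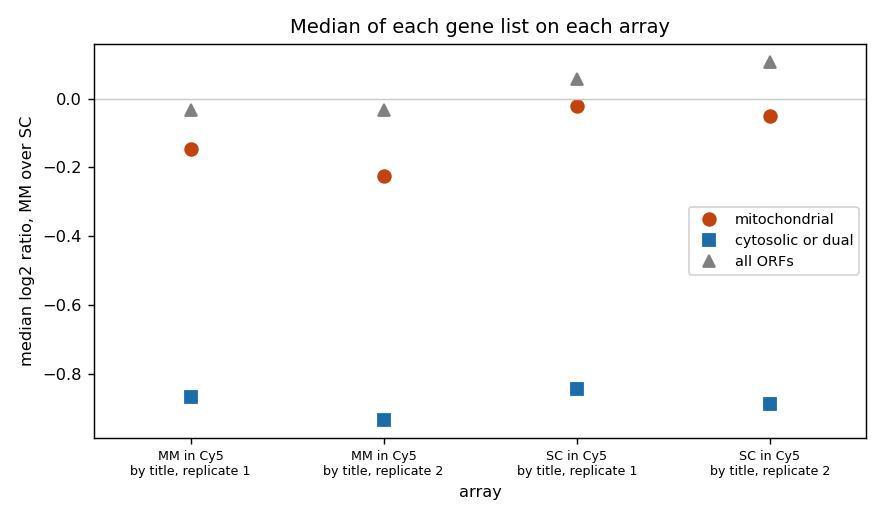
Median log2 ratio (vertical axis, MM over SC) of the 13 mitochondrial genes, the 22 cytosolic or dual genes and all ORFs tested, on each of the 4 arrays (horizontal axis), named by the dye given in the title. The mitochondrial medians lie between -0.22 and -0.02 and the cytosolic medians between -0.93 and -0.84, with no overlap.

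In the mitochondrial list the mean log2 ratios ran from -0.45 to 0.34, with a median of -0.11 and with 11 of the 13 genes below 0. The lowest was MSW1 (YDR268W), for the mitochondrial tryptophanyl-tRNA synthetase, at -0.40, -0.56, -0.40 and -0.45 on the 4 arrays. All 4 values were clearly below 0 (mean -0.45 ± 0.08, SD, n = 4 arrays; adjusted p = 0.000517 from limma). MSW1 was the only mitochondrial gene whose call as lower was kept without each single array in turn.

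The other mitochondrial genes that passed as lower had small log2 ratios. MSD1 (YPL104W), for the aspartyl enzyme, had values of -0.0066, -0.27, -0.31 and -0.19 (mean -0.19 ± 0.14, SD, n = 4 arrays; adjusted p = 0.0420 from limma). One of its arrays, the first with MM in Cy5, was close to 0 while the others were below. MSR1 (YHR091C), for the arginyl enzyme, had values of -0.15, -0.24, -0.22 and -0.10 (mean -0.18 ± 0.06, SD, n = 4 arrays; adjusted p = 0.0285 from limma). The MSD1 call was lost without the second array with MM in Cy5 (adjusted p = 0.157 from limma) and without either array with SC in Cy5 (0.131 and 0.0918). The MSR1 call was lost without either array with MM in Cy5 (adjusted p = 0.0678 and 0.133 from limma) and without the first with SC in Cy5 (0.0734). Both calls were also lost with the replicate number as a block, although these numbers do not pair the arrays.

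The single mitochondrial gene that was higher in nitrogen-poor medium was MSK1 (YNL073W), for the lysyl enzyme. It had values of 0.52, -0.0099, 0.41 and 0.45, so that 3 arrays showed an increase and the second array with MM in Cy5 showed none (mean 0.34 ± 0.24, SD, n = 4 arrays; adjusted p = 0.0173 from limma). The call was lost without the first (adjusted p = 0.0699 from limma) and without the second array with SC in Cy5 (0.0601).

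The remaining 9 mitochondrial genes did not pass the threshold. Their 95% confidence intervals from limma, not adjusted for the number of genes, all lay between -0.46 and 0.23. MST1 (YKL194C), for the threonyl enzyme, set the lower bound and was not measured on the second array with MM in Cy5; the other 3 gave 0.15, -0.49 and -0.10, the widest spread of the list (SD 0.32). NAM2 (YLR382C), for the leucyl enzyme, which is also known for a part in splicing mitochondrial introns, was at -0.02, -0.09, -0.04 and 0.09. MSY1 (YPL097W), for the tyrosyl enzyme, was at 0.18, 0.15, 0.065 and -0.05. These values straddled 0 from array to array. The means of ISM1 (YPL040C, isoleucine), MSE1 (YOL033W, glutamate), MSF1 (YPR047W, phenylalanine), MSM1 (YGR171C, methionine) and SLM5 (YCR024C, asparagine) lay close together, at -0.10, -0.12, -0.11, -0.09 and -0.11.

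For SLM5 and for DIA4 (YHR011W), a gene for a likely mitochondrial seryl enzyme, the values followed the orientation given in the titles. This was not particular to them. The orientations were also apart, without overlap, for ISM1, MSE1, MSF1 and MSM1. They were apart in the opposite direction for MSY1 and, on the 3 arrays measured, for MST1. The medians of all ORFs tested were also higher on the arrays with SC in Cy5. The share of all ORFs with orientations apart in this way was not counted, so this list is a description only. SLM5 had -0.32 and -0.26 on the arrays with MM in Cy5, and 0.15 and -0.0051 on those with SC in Cy5. DIA4 had -0.18 and -0.14 with MM in Cy5, and 0.11 and 0.10 with SC in Cy5. For none of the 35 genes did a dye orientation term pass an adjusted p of 0.05 in limma, and 1 of all ORFs tested did (0.0168%). The median size of the difference between orientations was 0.15 over the synthetase genes and 0.15 over all ORFs.

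**Figure D2:**
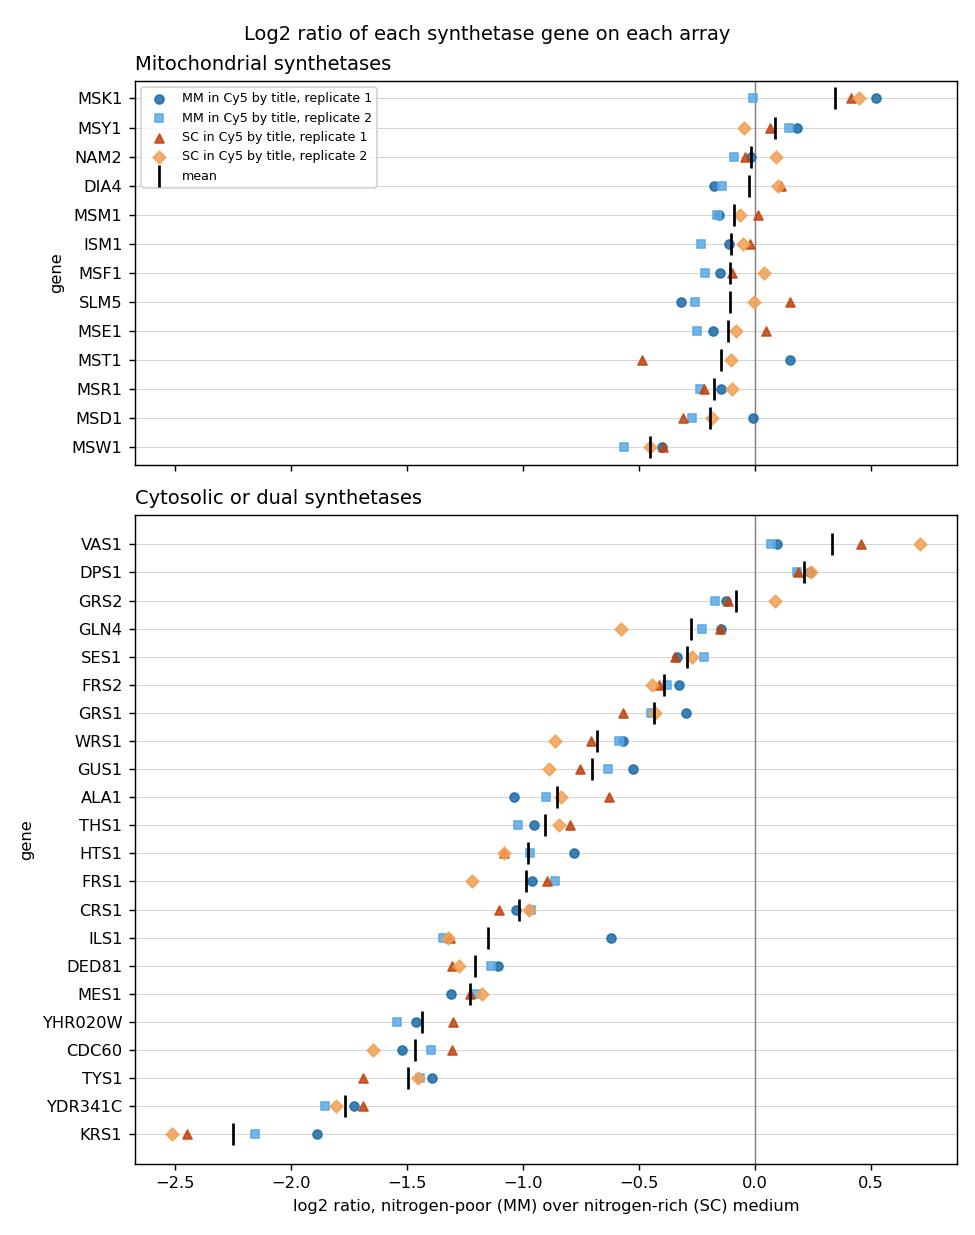
Log2 ratio (horizontal axis, MM over SC) of each synthetase gene (vertical axis, ordered by mean) on each array (colored symbols) with the mean (black bar), for the mitochondrial genes above and the cytosolic or dual genes below. Mitochondrial means run from -0.45 to 0.34 and cytosolic means from -2.25 to 0.33; ILS1 has 1 array apart from the other 3.

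Over the 22 cytosolic or dual genes the median of the mean log2 ratios was -0.94, a 1.92-fold decrease, with a lower quartile of -1.22 and an upper quartile of -0.40. KRS1 (YDR037W), for the lysyl-tRNA synthetase, was the lowest. Its values were -1.89, -2.15, -2.45 and -2.51 (mean -2.25 ± 0.29, SD, n = 4 arrays; adjusted p = 6.81e-06 from limma), a 4.75-fold decrease that ranked 44 from the bottom of all ORFs tested. The arrays with SC in Cy5 gave the larger decreases, and every array was below the lowest array of any other synthetase gene. YDR341C, for the arginyl enzyme, followed at -1.73, -1.85, -1.69 and -1.80 (mean -1.77 ± 0.07, SD, n = 4 arrays), a 3.40-fold decrease.

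Tyrosyl, leucyl and prolyl enzymes came next, at similar ratios. TYS1 (YGR185C) had values of -1.39, -1.44, -1.69 and -1.45, and CDC60 (YPL160W), the leucyl gene first found in a screen for cell division mutants, had -1.52, -1.40, -1.31 and -1.64. YHR020W, for the prolyl enzyme, was at -1.46, -1.54 and -1.30 on 3 arrays and was not measured on the second with SC in Cy5. The ranges of these genes overlapped, and their order within the list is not resolved. Their adjusted p-values from limma were 5.54e-06, 6.68e-06 and 2.98e-05.

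MES1 (YGR264C), for the methionyl enzyme, was among the most evenly measured, at -1.31, -1.20, -1.23 and -1.17 (mean -1.23 ± 0.06, SD, n = 4 arrays). DED81 (YHR019C), for the asparaginyl enzyme, was at -1.11, -1.14, -1.31 and -1.28. DED81 and YHR020W are next to each other on chromosome VIII in the R64 gene table and, by their names, are transcribed away from each other. Their ratios differed by 0.25 ± 0.22 (DED81 minus YHR020W, SD, n = 3 arrays). They were the only neighboring protein-coding genes among the 35.

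For ILS1 (YBL076C), the isoleucyl gene, 3 arrays agreed and 1 did not. The first array with MM in Cy5 gave -0.62 and the others -1.34, -1.31 and -1.32. Without that array the mean was -1.33, against -1.15 ± 0.35 with it (SD, n = 4 arrays; adjusted p = 0.000298 from limma). The gene was called lower either way.

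Genes with decreases near 2-fold were those for the cysteinyl (CRS1), histidyl (HTS1), threonyl (THS1 (YIL078W)) and alanyl (ALA1) enzymes and for FRS1 (YLR060W), a subunit of the phenylalanyl enzyme. CRS1 had values of -1.03, -0.97, -1.10 and -0.98, HTS1 of -0.78, -0.97, -1.08 and -1.08, and THS1 of -0.95, -1.02, -0.79 and -0.85. ALA1 had -1.04, -0.90, -0.63 and -0.84. These genes overlapped in their array values and all were called lower. CRS1, HTS1 and ALA1 belong to the 5 genes classed here as serving both compartments, whose median was -0.85 with 4 lower and 1 higher. The other 17 genes of the cytosolic list had a median of -0.98, with 15 lower and 1 higher.

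The cytosolic phenylalanyl enzyme is built from the products of FRS1 and FRS2 (YFL022C), and these genes changed unequally. FRS2 was at -0.33, -0.38, -0.41 and -0.45, and FRS1 at -0.96, -0.86, -0.90 and -1.22. FRS2 lay above FRS1 on all 4 arrays, by 0.59 ± 0.14 (SD, n = 4 arrays). Both were called lower, with limma's adjusted p at 0.000763 for FRS2 and 4.79e-05 for FRS1.

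GUS1 (YGL245W, glutamate), WRS1 (YOL097C, tryptophan), GRS1 (glycine), SES1 (YDR023W, serine) and GLN4 (YOR168W, glutamine) showed smaller decreases. GUS1 was at -0.53, -0.63, -0.75 and -0.89 and WRS1 at -0.57, -0.58, -0.71 and -0.86. In both, the arrays with SC in Cy5 gave the larger decreases. SES1 was at -0.34, -0.22, -0.34 and -0.27 (mean -0.29 ± 0.06, SD, n = 4 arrays). GLN4 rested largely on 1 array, with -0.15, -0.23, -0.15 and -0.58 (mean -0.28 ± 0.20, SD, n = 4 arrays; adjusted p = 0.0265 from limma). Its call was lost without the second array with SC in Cy5, where the mean was -0.18 (adjusted p = 0.0605 from limma), and without the second with MM in Cy5 (0.0645).

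Yeast has a pair of glycyl genes, of which GRS1 provides the enzyme of both compartments and GRS2 (YPR081C) is a duplicate that is dispensable in normal growth. GRS2 was at -0.12, -0.17, -0.12 and 0.09, the only one of the 22 genes that was not called (mean -0.08 ± 0.11, SD, n = 4 arrays; adjusted p = 0.294 from limma; 95% confidence interval from -0.23 to 0.07). GRS1 was at -0.30, -0.45, -0.57 and -0.43 (mean -0.44 ± 0.11, SD, n = 4 arrays). GRS2 exceeded GRS1 on each array, by 0.35 ± 0.16 (SD, n = 4 arrays). The genes are related in sequence and were spotted as whole ORFs, and the part of shared hybridization in their values was not tested.

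A pair of cytosolic or dual genes was higher in nitrogen-poor medium. DPS1 (YLL018C), for the aspartyl enzyme, had the tightest values of the list, at 0.24, 0.18, 0.19 and 0.24 (mean 0.21 ± 0.03, SD, n = 4 arrays; adjusted p = 0.0106 from limma), a 1.16-fold increase. VAS1, for the valyl enzyme of both compartments, spread more widely, at 0.10 and 0.07 on the arrays with MM in Cy5 and 0.46 and 0.71 on those with SC in Cy5 (mean 0.33 ± 0.31, SD, n = 4 arrays; adjusted p = 0.0389 from limma). The VAS1 values were above 0 on every array, but the call was lost without either array with SC in Cy5 (adjusted p = 0.139 and 0.112 from limma). It was also lost with the replicate number as a block (adjusted p = 0.0623 from limma), although these numbers do not pair the arrays.

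**Figure D3:**
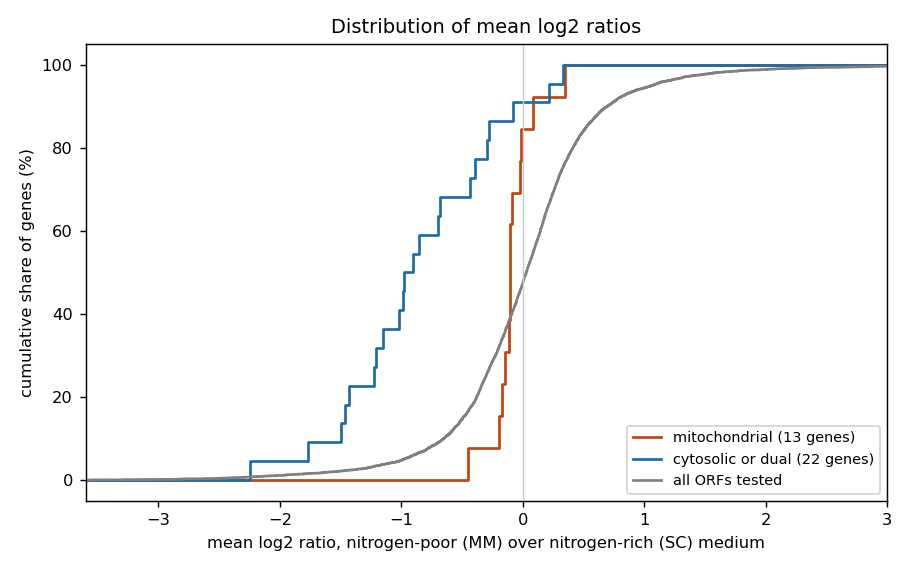
Cumulative share of genes (vertical axis, percent) at or below each mean log2 ratio (horizontal axis, MM over SC) for the mitochondrial genes, the cytosolic or dual genes and all ORFs tested; the axis ends at 3, above every synthetase gene. The mitochondrial curve rises steeply around its median of -0.11, and the cytosolic curve, with a median of -0.94, lies to the left of that of all ORFs, with a median of 0.03.

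The structural class of the enzyme was not used in choosing the genes. Among cytosolic or dual genes the 10 of class I had a median of -1.08, with 9 lower and 1 higher, and the 12 of class II a median of -0.88, with 10 lower and 1 higher. Among mitochondrial genes the medians were -0.10 for the 7 of class I and -0.11 for the 6 of class II. The highest and the lowest cytosolic gene, VAS1 and KRS1, belong to different classes.

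Each of the 13 mitochondrial genes has a cytosolic counterpart for the same amino acid, and both were measured on the same arrays, so that a shift of a whole array cancels in their difference. The mitochondrial gene had the higher ratio on every array in 12 of the 13 pairs, and in none of the 13 did the array values of both genes overlap. Some separations were narrow: the lowest MSW1 value was -0.563 and the highest WRS1 value -0.570. How often other pairs of ORFs separate in this way was not counted, so these counts are a description only. The difference, mitochondrial minus cytosolic, had a median of 1.05 and exceeded 1 in 7 pairs.

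Lysine gave the widest gap, with MSK1 above KRS1 by 2.41, 2.14, 2.86 and 2.96 (2.59 ± 0.38, SD, n = 4 arrays), a 6.03-fold difference between the ratios. Gaps of about 3-fold separated the arginyl pair (MSR1 minus YDR341C, 1.59 ± 0.10) and the tyrosyl pair (MSY1 minus TYS1, 1.58 ± 0.14; SD, n = 4 arrays each). NAM2 exceeded CDC60 by 1.45 ± 0.22, MSM1 exceeded MES1 by 1.14 ± 0.09, SLM5 exceeded DED81 by 1.10 ± 0.32 and ISM1 exceeded ILS1 by 1.05 ± 0.37 (SD, n = 4 arrays each). In all of these the difference was larger than its spread between arrays. Across the 13 pairs the means ranged from -0.45 to 0.34 for the mitochondrial genes and from -2.25 to 0.21 for their cytosolic partners.

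Narrower gaps were found for MST1 over THS1 (0.72 ± 0.40, SD, n = 3 arrays) and for MSE1 over GUS1 (0.58 ± 0.25, SD, n = 4 arrays). The seryl (DIA4 minus SES1, 0.27 ± 0.18) and tryptophanyl pairs (MSW1 minus WRS1, 0.23 ± 0.17; SD, n = 4 arrays each) were closest. For phenylalanine the gap depended on the cytosolic subunit. MSF1 exceeded FRS2, the partner used for the counts over pairs, by 0.29 ± 0.15, and FRS1 by 0.88 ± 0.26 (SD, n = 4 arrays each). With FRS1 as the partner, 12 of the 13 pairs still had the mitochondrial gene higher on every array, and the median difference was again 1.05. For the tryptophanyl pair the second array with MM in Cy5 gave a difference of 0.02. The aspartyl pair ran the other way, with MSD1 below DPS1 on every array (-0.41 ± 0.11, SD, n = 4 arrays). No test was run on single pairs: an exact two-sided sign test, which uses the signs and not the sizes of the differences, cannot give a p below 0.125 with 4 arrays or 0.25 with 3.

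Across the 13 pairs, Pearson's r between the mean ratios of the mitochondrial and cytosolic genes was -0.57 and Spearman's rho was -0.50 (across genes). This is a description only, since all points come from the same 4 arrays and genes are not independent replicates. The lysine pair held both the highest mitochondrial mean (MSK1, 0.34) and the lowest cytosolic mean (KRS1, -2.25). The coefficients were not computed without that pair, so an inverse relation among the other pairs is not shown.

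**Figure D4:**
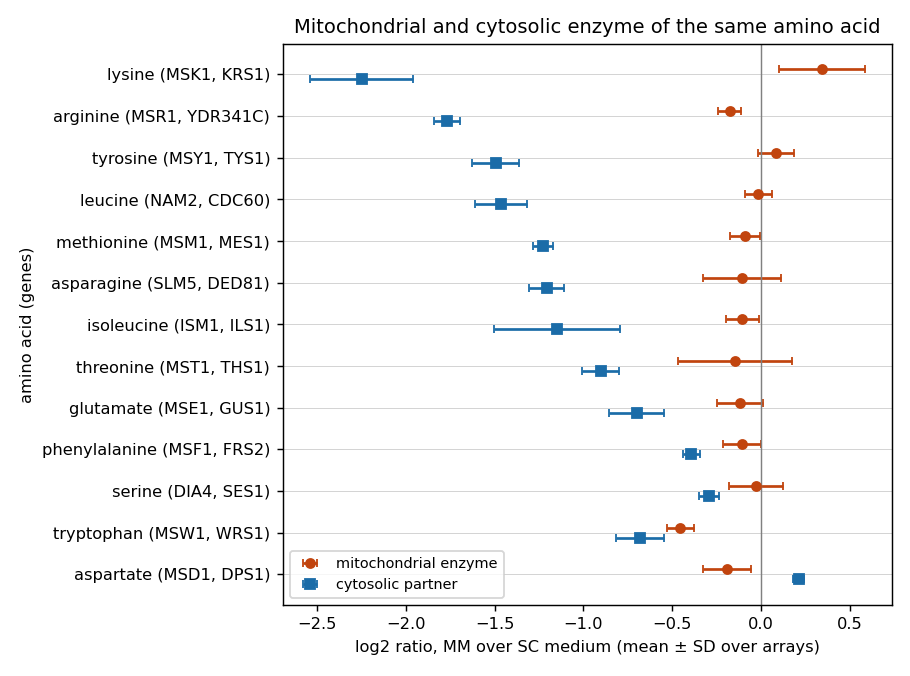
Mean log2 ratio (horizontal axis, MM over SC; bars are SD over 4 arrays, 3 for MST1) of the mitochondrial gene and its cytosolic partner for each of 13 amino acids (vertical axis, ordered by the difference; FRS2 for phenylalanine). The gap is widest for lysine at 2.59 and reversed only for aspartate at -0.41.

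Of 12 further genes that act on charged tRNA or handle tRNA, 11 were measured on at least 3 arrays, and 1 was lower and 1 higher at an adjusted p of 0.05 from limma, below the background of 65.3%. Their median log2 ratio was -0.07. LOS1, for an exporter of tRNA from the nucleus, was lower at -0.35, -0.34, -0.74 and -0.64 (mean -0.52 ± 0.20, SD, n = 4 arrays; adjusted p = 0.00178 from limma). ARC1, whose product binds the MES1 and GUS1 enzymes, was at -0.19, -0.16, -0.37 and 0.02 (mean -0.18 ± 0.16, SD, n = 4 arrays; adjusted p = 0.0753 from limma). ARC1 lay above MES1 by 1.05 ± 0.15 and above GUS1 by 0.52 ± 0.26 (SD, n = 4 arrays each), so that the genes of this complex differed in their ratios on every array. GCN2, for the kinase that senses uncharged tRNA, had an uneven set of values, at -0.20, 0.03, 0.66 and -0.0068 (adjusted p = 0.464 from limma).

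Yeast mitochondria make their glutaminyl-tRNA without a glutaminyl enzyme of their own, by an amidotransferase encoded by HER2, PET112 and GTF1. HER2 was higher in nitrogen-poor medium, at 0.69, 0.46, 0.35 and 0.55 (mean 0.51 ± 0.15, SD, n = 4 arrays; adjusted p = 0.000786 from limma). PET112 was at 0.15, -0.11, 0.14 and 0.04 and GTF1 at 0.13, 0.04, 0.0019 and -0.05, and neither passed (adjusted p = 0.497 and 0.686 from limma). All HER2 values lay above all values of the other subunits.

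The arrays give the share of each mRNA relative to the mean of an array, so that a lower ratio does not tell less mRNA per cell from more of other mRNAs. Fewer cells expressing a gene and less RNA per cell cannot be told apart either.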

How the data were processed

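The authors spotted PCR-amplified ORFs, scanned the slides with a GenePix scanner, removed background and scaled the well measured spots to a common mean. The deposited value is a log2 ratio for each ORF on each array, left empty where a spot was not well measured. By the study's methods the replicates are separate reverse transcription reactions. No source states separate cultures, so errors and p-values measure a spread that may be technical, and 4 arrays limit the precision. Between 5548 and 5992 ORFs had a value on an array.

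Titles and channel descriptions give opposite dyes to the media on every array, although both split the arrays into the same pairs; arrays are named by title. The direction of the ratios was therefore taken from the study's levels in both media, of which only part of the table was used here. Over the 1737 to 1924 ORFs shared with it, 8 of the 35 genes among those listed, each array correlated with the nitrogen-poor over nitrogen-rich log2 ratio at r between 0.964 and 0.983 (slopes between 0.98 and 1.04). All columns were taken as nitrogen-poor over nitrogen-rich, on a log2 scale.

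R 4.3.3 and limma 3.58.1 (lmFit, eBayes) tested the ratio against 0 for each of the 5956 ORFs measured on at least 3 arrays, with the mean as the only term. The study's Bayesian program was not run. P-values were adjusted by Benjamini-Hochberg over all of these ORFs and called at 0.05. The script was tested on simulated data. Symbols came from the R64 gene table, in which all 35 genes and 5801 of 6301 ORFs were found. Differences between genes were taken per array. As alternatives, single arrays were left out, arrays were centered, scaled or averaged by number, a term for dye orientation or for the replicate number was included, and the filter on ORFs, the variance and the threshold were varied. A planned search of promoters for motifs was not run, because no sequences were used here. All 35 genes are named, and of the further tRNA-handling genes those with the largest call in each direction, ARC1, GCN2 and the amidotransferase genes. The 35 genes were picked by name and function, but this set and the other lists were settled on with earlier results of these data known. FRS1 as the phenylalanyl partner was tried after seeing the data.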

Additional observations from a re-analysis of the deposited data

Results flagged for a closer look

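Among 47 sets of 4 array values examined (genes and list medians), 1 had a single array far from the rest, and chance puts about 5% of sets past the limit. For ILS1 the gap between the first array with MM in Cy5 (-0.62) and the nearest other array, divided by the range, was 0.957.

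Arrays are again named by the dye in their titles. For 2 genes the arrays of one orientation were all on one side of 0 and those of the other all on the opposite side. The share of all ORFs with such a split was not counted, and the medians of all ORFs tested also changed sign between orientations. The split is therefore not shown to be particular to these genes. The mean log2 ratio with MM in Cy5 minus that with SC in Cy5 was -0.26 for DIA4 and 0.55 for PTH2, a peptidyl-tRNA hydrolase gene. A dye orientation term in limma gave adjusted p-values of 0.173 for DIA4 and 0.125 for PTH2. Neither gene was called as changed between the media.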

How the results depend on the processing

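The count of 19 lower cytosolic or dual genes stayed between 15 and 19 under all 15 alternatives. The list medians were recomputed under 8 of these (an array left out, arrays centered or scaled, and the filter on ORFs), and lay between -0.97 and -0.90 (cytosolic or dual) and between -0.13 and -0.07 (mitochondrial), with a difference between 0.74 and 0.79. No synthetase ratio that was called changed sign, and 23 of the 35 genes kept their side of the threshold throughout. Counts that are small moved more. Leaving out single arrays gave 0 to 1 higher and 1 to 2 lower mitochondrial genes, 1 to 2 higher cytosolic or dual genes, and 1 to 2 lower genes among the further genes that handle tRNA. With the replicate number as a block, 1 cytosolic or dual gene was higher and 1 mitochondrial gene lower, while 19 cytosolic or dual genes were lower. The replicate numbers do not pair the arrays (r = 0.012 between the deviations of same-numbered arrays), and the block changed no other count of these lists. With each gene's own variance, 1 cytosolic or dual and 0 mitochondrial genes were higher. The calls of MSK1, MSD1, VAS1 and GLN4 were then lost (adjusted p = 0.102, 0.102, 0.166 and 0.114, ordinary t test). Requiring a 1.5-fold change left 0 higher and 15 lower cytosolic or dual genes, and 0 mitochondrial or further tRNA-handling genes in either direction. Requiring the same sign on 4 arrays left 0 higher mitochondrial genes. Of the further tRNA-handling genes, 2 were lower after centering, with same-numbered arrays averaged and with a one-sided P, and 2 were higher when ORFs with values on 2 arrays were kept. The causes of these moves were not tested.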

Other observations

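FMT1, for the enzyme that formylates the initiator methionyl-tRNA of mitochondria, had values on 2 arrays only and was not tested with the rest. It was at 1.04 on the second array with MM in Cy5 and at 0.34 on the first with SC in Cy5. AIM10, whose product resembles prolyl-tRNA synthetases and is not among the 35 genes, was at -0.09, -0.16, 0.03 and -0.01 (mean -0.06 ± 0.08, SD, n = 4 arrays; adjusted p = 0.408 from limma), within the range of the mitochondrial list.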
